A study of Mus musculus with 116 samples.

Results

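Mitochondrial ribosomal proteins build the ribosome inside mitochondria and are encoded in the nucleus. The members described here were all gene symbols of the form Mrpl or Mrps followed by a number and at most 1 letter. This gave 77 of the 24028 symbols present in all 4 deposited expression tables, 48 large subunit genes (Mrpl) and 29 small subunit genes (Mrps). The mitochondrial ribosome translates the messenger RNAs of mitochondrial DNA, which encode core subunits of the respiratory chain. Its large subunit forms peptide bonds and its small subunit decodes the messenger. Some of its proteins have bacterial counterparts and others are found only in mitochondria. Eggs carry a large maternal store of mitochondria, and the embryo divides this store among its cells during cleavage. By known structure, the proteins of Mrps18a and Mrps30 sit in the large subunit, and that of Mrps36 belongs to the alpha-ketoglutarate dehydrogenase complex. The symbol decides the group in the counts given here.

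The series followed RNA polymerase II binding and the start of embryonic transcription in wild-type mouse oocytes and embryos, the embryos from C57BL/6N females mated with PWK males. The females were 8 weeks old and were given PMSG and hCG, hormones that induce ovulation. Total RNA depleted of ribosomal RNA was sequenced, 1 library a group, from about 100 oocytes or embryos each. The groups were MII oocytes (mature eggs, 13 h after hCG), PN5 zygotes (late pronuclear stage, 30 h), early 2-cell embryos (36 h) and late 2-cell embryos. The late 2-cell embryos came from zygotes taken 23 h after hCG and kept in KSOM medium for 14 h. The group labelled mTBE, whose column is headed DRB, received 60 uM DRB, which blocks elongation by RNA polymerase II. The control received 0.1% DMSO. Both were released on entering the 2-cell stage and cultured for 12 h more. The ICM (inner cell mass of the blastocyst, 98 h after hCG) gave 2 libraries made with Smart-seq2, which reads polyadenylated RNA. All values are the authors' FPKM, read fragments per length of transcript, scaled to a common library size. One table holds PN5, mTBE and control, another holds the ICM libraries, while MII and early 2-cell each had their own. Tables were normalized separately, so levels set across them are uncertain in scale.

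With 1 library a group there is no replicate check and no p-value for the total RNA groups, and the depth of these libraries is unknown. A difference is given on the log2(FPKM + 1) scale, which understates the change of low genes. A gene is called measured where 1 of the compared libraries reaches 1 FPKM, and higher or lower where the difference reaches 1, which is called 2-fold on this scale. In whole oocytes or embryos, fewer cells of a type and less RNA per cell cannot be told apart. All 7 oocyte markers (Gdf9, Zp3 and others) were at 1 FPKM or more in each total RNA library, with sums of 766 to 3359 FPKM against 11.0 and 33.6 in the ICM libraries. Sperm markers summed to 6.85 FPKM or less in every library.

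Most of the genes were at 1 FPKM or more in each library, but they stood much higher in the ICM libraries. At 1 FPKM or more were 76 of the 77 genes in MII, 73 in PN5 and 57 in early 2-cell embryos. The count was 67 in mTBE and 72 in control embryos, and 77 in each ICM library. Of all symbols, 42.2% reached this level in MII, 41.6% in PN5 and 39.6% in early 2-cell embryos. It was 54.2% in mTBE and 51.9% in control embryos, and 40.1% and 39.1% in the ICM libraries. The share of all FPKM held by the 77 genes was 0.487% in MII oocytes, 0.341% in PN5 zygotes and 0.256% in early 2-cell embryos. It was 0.190% in late 2-cell mTBE and 0.239% in late 2-cell control embryos, and 1.80% and 1.96% in the ICM libraries. At 10 FPKM or more were 52 of the 77 genes in MII, 45 in PN5, 17 in early 2-cell, 21 in mTBE and 32 in control embryos, and all 77 in each ICM library. The median large subunit gene was at 12.3 FPKM in MII, 11.7 in PN5, 3.59 in early 2-cell, 5.56 in mTBE and 9.04 in control embryos. The median small subunit gene was at 15.4 FPKM in MII, 11.1 in PN5, 4.27 in early 2-cell, 4.10 in mTBE and 5.05 in control embryos. Small subunit genes thus had the higher median in MII and early 2-cell and the lower one in PN5 and in both late 2-cell libraries. Within 1 library the genes were far from equal, although their products enter the same particle. The upper quartile was 3.47 times the lower one in MII, 9.64 times in early 2-cell and 6.47 times in control embryos.

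**Figure D1:**
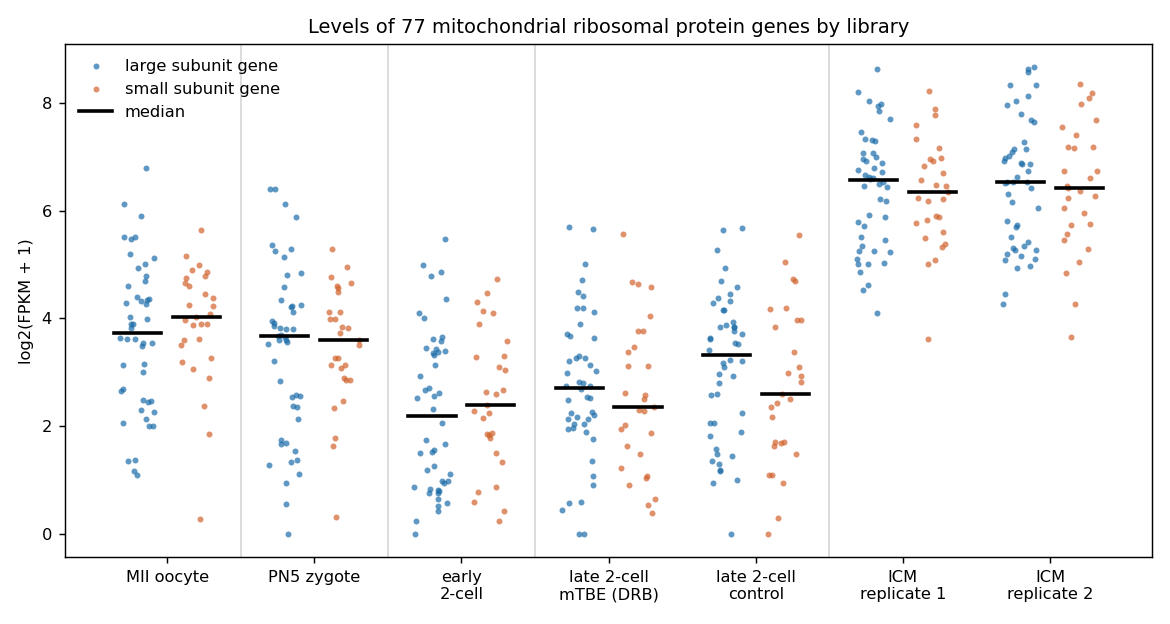
Levels of the 77 genes in each of the 7 libraries, as log2(FPKM + 1) on the vertical axis; each point is 1 gene, large subunit genes left and small subunit genes right, with a bar at the median. Every group spreads over several units, and all 77 genes are at 10 FPKM or more in both ICM libraries.

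Over the 5 total RNA libraries the highest genes were Mrpl18, Mrpl48, Mrpl10, Mrpl24 and Mrps23. Mrpl18, a large subunit protein with a bacterial counterpart, was at 68.3 FPKM in MII, 83.6 in PN5, 28.1 in early 2-cell, 49.6 in mTBE and 49.9 in control embryos. Mrpl48, a mitochondria-specific protein, had 110.4 FPKM in MII, the highest value of any member in total RNA, 83.5 in PN5, 43.5 in early 2-cell, 21.4 in mTBE and 21.0 in control embryos. Mrpl48 thus stood lower in both late 2-cell libraries than in the other 3, while Mrpl10 stood higher there. Mrpl10, which anchors the stalk that recruits translation factors, was at 23.3 FPKM in MII, 37.0 in PN5, 19.4 in early 2-cell, 50.9 in mTBE and 48.7 in control embryos. Mrpl24 lay between 22.9 and 38.1 FPKM and Mrps23 between 18.8 and 46.3 FPKM over these libraries. Spans of Mrpl18, Mrpl48, Mrpl24 and Mrps23 overlap those of Tcp1, Rab6a, Rrnad1 and Cuedc1 in the RefSeq annotation, and Mrpl48 has a named pseudogene. Whether strand was used in counting is not given in the sources used here, so the reads of overlapping genes may not be separated. Among members that reached 5 FPKM in a total RNA library, leaving out Mrps34, the lowest by mean log2 level were Mrpl52, Mrpl39 and Mrps28. Mrpl52 was at 7.91 FPKM in MII, 4.21 in PN5, 0.350 in early 2-cell and 1.01 in control embryos and was listed at 0 in mTBE embryos. Mrpl39 did not pass 5.26 FPKM and Mrps28 did not pass 6.46 FPKM in any total RNA library, both highest in MII.

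Early 2-cell embryos had lower levels of most members than MII oocytes. Of 76 measured, 50 were at least 2-fold lower (65.8%) and 0 were at least 2-fold higher. Over all 10675 genes measured, 28.8% were lower and 4.02% were higher. The median difference was -1.30 for 48 large and -1.42 for 28 small subunit genes, against -0.58 for all genes. The libraries come from separate tables, and the median log2 ratio of all genes at 5 FPKM or more was -0.57. With that ratio set to 0, 33 members were lower and 1 higher, against 14.3% lower and 9.58% higher of all genes. With values rescaled to the same sum, 42 were lower and 1 higher, against 18.3% lower and 14.7% higher of all genes.

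The largest decreases came from both subunits. Mrps22, a small subunit protein whose human gene is mutated in a mitochondrial disease, was at 0.722 FPKM in early 2-cell embryos and 24.3 in MII oocytes, a difference of -3.88. Mrpl14, which in human cells binds the assembly factor that keeps the subunits apart, was at 2.20 FPKM in early 2-cell embryos and 44.6 in MII oocytes (-3.83). Its span overlaps Tmem63b. Mrps36, with 3 named pseudogenes, was at 1.53 FPKM in early 2-cell embryos and 28.0 in MII oocytes (-3.52). The next was Mrpl22, at 0.696 FPKM in early 2-cell embryos and 18.3 in MII oocytes (-3.51). Mrps18c was at 0.345 FPKM in early 2-cell embryos and 13.7 in MII oocytes (-3.45). Mrpl54 was at 0.566 FPKM in early 2-cell embryos and 11.3 in MII oocytes (-2.97). In each of these 6 genes the early 2-cell level was under 2.5 FPKM while the MII level was above 10 FPKM.

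A few members stood near their MII level. Mrps26, a mitochondria-specific small subunit protein, was at 16.7 FPKM in early 2-cell embryos and 8.61 in MII oocytes (0.88), and it became the 1 higher member once the scale was shifted or rescaled. Mrpl44, which carries an RNase III fold, was at 11.5 FPKM in early 2-cell embryos and 11.4 in MII oocytes (0.02). Its span overlaps Wdfy1. The differences were -0.02 for Mrpl3, -0.08 for Mrps30, -0.19 for Mrpl24 and -0.25 for Mrpl10, and each turned positive with centring or rescaling. Their sign therefore rests on the scale, whereas the 6 large decreases kept theirs.

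**Figure D2:**
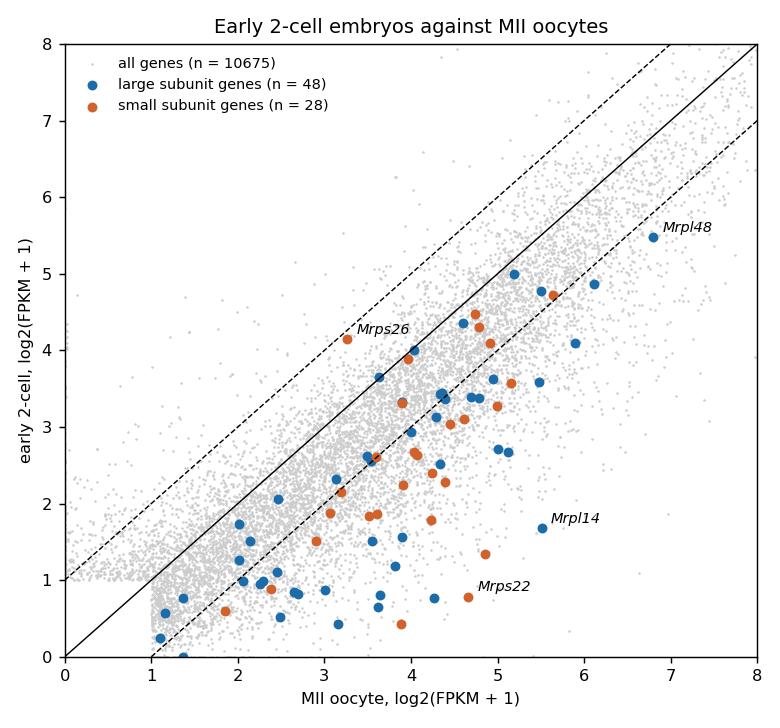
Early 2-cell embryos (vertical axis) against MII oocytes (horizontal axis), both as log2(FPKM + 1), for measured genes; grey points are all genes within the axes, blue points large subunit genes and orange points small subunit genes. The solid line marks equal values and the dashed lines a difference of 1; 50 of 76 members lie on or under the lower dashed line, and Mrps26 is the member farthest above the solid line.

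Late 2-cell control embryos and PN5 zygotes were compared within their shared table. Members were lower more often than higher, while all genes went the other way. Of 76 measured, 26 were at least 2-fold lower (34.2%) and 10 at least 2-fold higher (13.2%), against 17% lower and 30.5% higher of 13022 genes. The median difference was -0.39 for large and -0.84 for small subunit genes, and 0.28 for all genes. The balance of all genes moved with level. Over means of 1 to 5 FPKM, 6 of 18 members were lower and 1 higher, against 410 lower and 1691 higher of 4000 genes. Over 5 to 20 FPKM it was 17 lower and 8 higher of 44 members, against 821 lower and 1218 higher of 4220 genes. Over 20 to 100 FPKM both went the same way. There 3 of 13 members were lower and 1 higher, against 747 lower and 441 higher of 3148 genes. The classes by bacterial counterpart follow known structure, so Mrps18a and Mrps30 count there as large subunit genes and Mrps36 is left out. By class, 7 of 10 mitochondria-specific small subunit genes were lower and 2 higher, with a median of -1.81. For the 16 small subunit genes with a bacterial counterpart, 4 were lower and 1 higher, with a median of -0.18. Among the 20 mitochondria-specific large subunit genes, 5 were lower and 5 higher, with a median of -0.03. Of 29 measured large subunit genes with a bacterial counterpart, 9 were lower and 2 higher, with a median of -0.48. The control was cultured in DMSO and the labels give no such culture for PN5, so stage and culture cannot be told apart.

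The largest decreases were in genes above 8 FPKM in PN5. Mrpl47, which has a bacterial counterpart in the large subunit, had 1.81 FPKM in control late 2-cell embryos and 34.1 in PN5 zygotes (-3.64). Mrps18a was at 2.26 FPKM in control and 30.0 in PN5 (-3.25), and its span overlaps Rsph9. Mrps35 stood at 1.80 FPKM in control and 21.4 in PN5 (-3.00). These genes were also low in mTBE embryos, with 3.82 FPKM for Mrpl47, 4.10 for Mrps18a and 2.10 for Mrps35. Mrps31 was at 0.224 FPKM in control and 8.57 in PN5 (-2.97). Mrpl32, which a protease of the inner membrane matures before it joins the ribosome, was at 10.5 FPKM in control and 68.4 in PN5 (-2.59). Mrps27, a pentatricopeptide repeat protein, stood at 3.49 FPKM in control embryos and 22.6 in PN5 (-2.39). All 6 were below their PN5 level in both late 2-cell libraries.

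The largest increases at 5 FPKM or more in either library, leaving out Mrps34, were in genes low in PN5. Mrpl43 was at 14.3 FPKM in control late 2-cell embryos and 1.16 in PN5 zygotes (2.83), with 3.04 in MII, 2.33 in early 2-cell and 5.95 in mTBE embryos. Mrpl49 was at 12.6 FPKM in control and 0.941 in PN5 (2.81), with 1.57 in MII, 0.695 in early 2-cell and 5.75 in mTBE embryos. Mrps26 was at 45.6 FPKM in control and 6.28 in PN5 (2.68), with 23.9 in mTBE embryos. These 3 mitochondria-specific genes were highest in the control among the total RNA libraries, with mTBE next. Mrpl20 stood at 9.65 FPKM in control and 1.42 in PN5 (2.14), and Mrpl41 at 8.43 FPKM in control and 2.36 in PN5 (1.49). Mrpl4, a protein lining the exit tunnel, was at 19.9 FPKM in control and 8.30 in PN5 (1.17). Mrpl43 overlaps Twnk, the gene of the mitochondrial DNA helicase, and Mrpl49 overlaps Syvn1, so reads of these neighbours may be included.

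Promoters of the 3 genes are printed here because their increases were the largest. High control and low PN5 values follow from that choice. The mTBE value lay between them in each, as it also did in Mrpl20 and Mrpl41. In early 2-cell embryos against MII the 3 genes differed, with 0.88 for Mrps26, -0.28 for Mrpl43 and -0.60 for Mrpl49. The sequences are RefSeq's on GRCm38.p6, from 250 bases before to 50 after the annotated start, 5′ to 3′ on the gene's strand, while the authors' build was mm9. Capitals mark matches, on either strand, to motifs defined with the promoter counts further on.
Mrpl43, chr19:45006393-45006692, minus strand: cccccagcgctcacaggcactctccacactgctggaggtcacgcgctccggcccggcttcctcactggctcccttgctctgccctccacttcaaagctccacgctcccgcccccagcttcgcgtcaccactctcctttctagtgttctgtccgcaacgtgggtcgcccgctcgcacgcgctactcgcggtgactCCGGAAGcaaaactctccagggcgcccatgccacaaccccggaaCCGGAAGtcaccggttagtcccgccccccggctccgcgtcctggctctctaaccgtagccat
Mrpl49, chr19:6057706-6058005, minus strand: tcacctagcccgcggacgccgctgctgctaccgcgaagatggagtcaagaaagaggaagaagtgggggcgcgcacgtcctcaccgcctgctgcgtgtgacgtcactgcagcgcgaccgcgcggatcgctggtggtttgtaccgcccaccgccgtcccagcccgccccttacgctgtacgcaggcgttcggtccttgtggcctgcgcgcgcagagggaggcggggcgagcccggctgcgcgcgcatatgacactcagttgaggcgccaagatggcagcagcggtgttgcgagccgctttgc
Mrps26, chr2:130563507-130563806, plus strand: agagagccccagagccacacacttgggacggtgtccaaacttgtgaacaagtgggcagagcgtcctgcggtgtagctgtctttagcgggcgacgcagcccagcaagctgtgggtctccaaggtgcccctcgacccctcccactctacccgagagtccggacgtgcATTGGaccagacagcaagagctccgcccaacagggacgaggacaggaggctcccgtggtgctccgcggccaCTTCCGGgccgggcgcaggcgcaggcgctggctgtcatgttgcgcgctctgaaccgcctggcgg
Mrpl43 held the ETS motif CCGGAAG at 2 places, the first bases 56 and 12 bases before the start. Mrps26 held that motif on the other strand, beginning 14 bases before the start, and the CCAAT box on the other strand, beginning 85 bases before it. Mrpl49 held none of the letters searched in this window.

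Each member was also placed by the library of the shared table, out of 3, in which it was highest. PN5 was highest for 45 of 76 members (59.2%) and for 34.1% of all genes. The late 2-cell control was highest for 22 members (28.9%) and 35.2% of all genes, and mTBE for 9 members (11.8%) and 30.7% of all genes. These shares have no test.

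Late 2-cell embryos released from DRB were compared with control embryos of the same table. Most members lay within 2-fold, and those outside were mainly lower. Of 73 measured, 14 were at least 2-fold lower (19.2%) and 2 at least 2-fold higher (2.74%), against 9.99% lower and 5.57% higher of 13726 genes, and 57 were within 2-fold. The other 4 members, below 1 FPKM in both libraries, were Mrpl15, Mrpl23, Mrps10 and Mrps36. Of 46 large subunit genes 11 were lower and 2 higher, with a median of -0.57. Of 27 small subunit genes 3 were lower and 0 higher, with a median of -0.12, and the median of all genes was -0.05. With values rescaled to the same sum, 19 members were lower and 4 higher, against 13.0% lower and 11.5% higher of all genes. The members nearest the threshold were at -1.01 inside and -0.99 outside it. The difference between subunits has no test. The median of all genes also moved with level. Over genes with a mean of 5 to 20 FPKM the median was -0.71 for 33 members and -0.22 for all genes, over 20 to 100 FPKM 0.01 for 12 members and -0.09 for all genes, and over 1 to 5 FPKM 0.02 for 24 members and 0.03 for all genes. The members thus differed most from all genes in the middle of these ranges. The median was -0.51 for large subunit genes with a bacterial counterpart, -0.60 for mitochondria-specific large subunit genes and -0.31 for small subunit genes with a bacterial counterpart. It was 0.19 for the 10 mitochondria-specific small subunit genes, of which 1 was lower. The 2-cell markers, of which 7 were at 1 FPKM or more in mTBE and 6 in control embryos, summed to 167 FPKM in mTBE and 313 FPKM in control embryos, and their part in these values was not tested. Cumulus and granulosa markers, 6 of 10 at 1 FPKM or more in each library, summed to 78.3 FPKM in mTBE and 77.01 in control embryos. Serpine2 alone was at 57.7 FPKM in mTBE and 49.5 in control embryos. Single markers went both ways, Amhr2 from 16.7 FPKM in control to 2.12 in mTBE and Foxl2 from 1.04 FPKM in control to 7.20 in mTBE embryos.

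**Figure D3:**
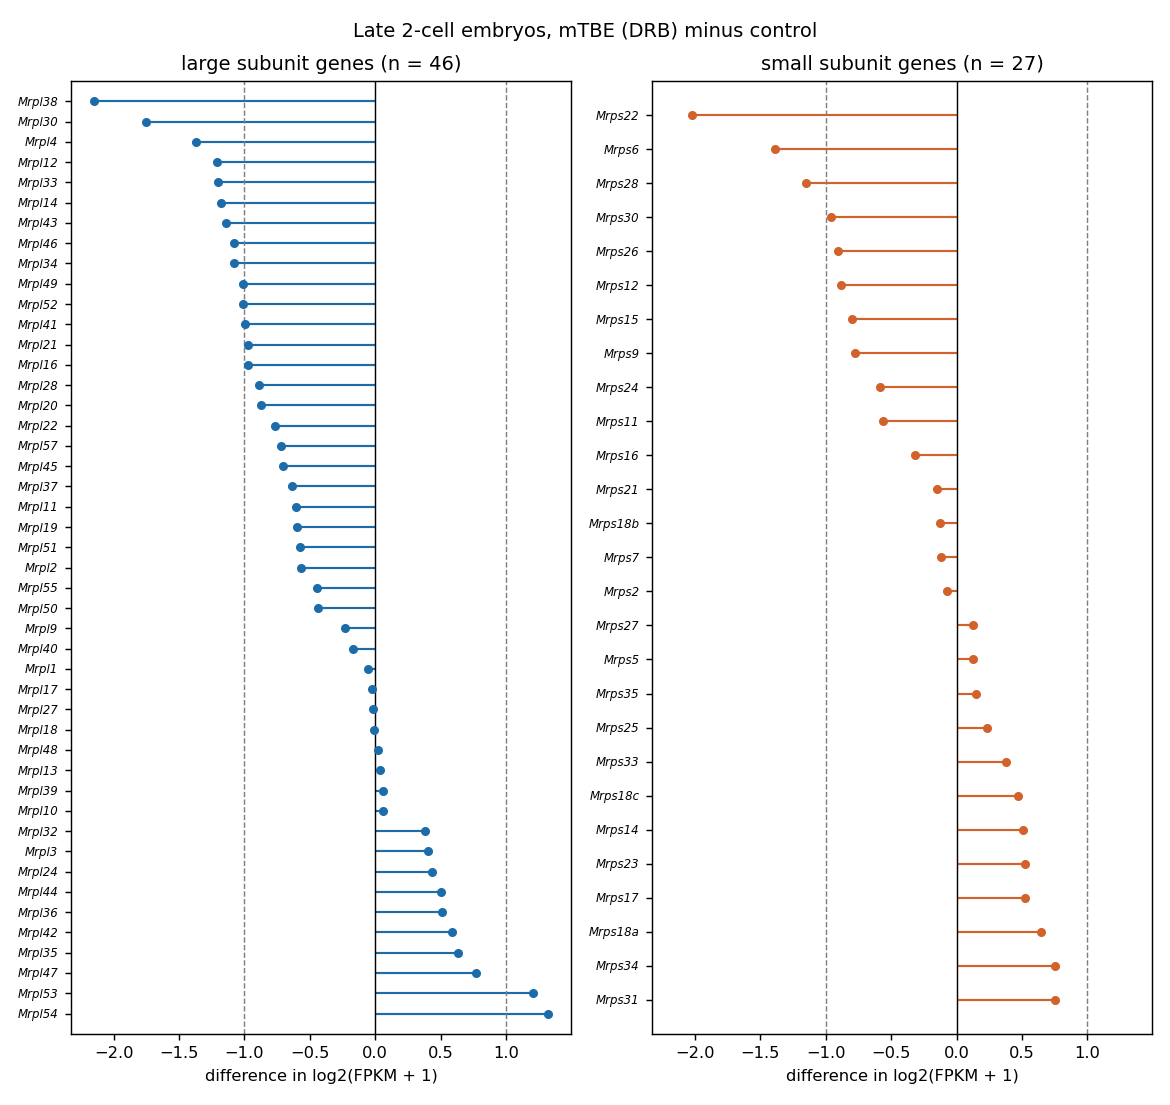
Difference in log2(FPKM + 1), mTBE (DRB) minus control late 2-cell embryos, for each measured large subunit gene (left, 46 genes) and small subunit gene (right, 27 genes), sorted by value. Dashed lines mark a difference of 1 in each direction; 14 genes reach the lower line and Mrpl53 and Mrpl54 pass the upper one.

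Mrpl38 was the member with the largest decrease. This mitochondria-specific protein of the large subunit was at 0.364 FPKM in mTBE and 5.07 in control embryos (-2.15), with 10.5 in PN5, 6.66 in early 2-cell and 15.0 in MII. Mrps22 followed at 1.12 FPKM in mTBE and 7.59 in control embryos (-2.02). In both genes mTBE had the lowest value of the shared table, as it also did in Mrpl30, Mrps6, Mrpl4 and Mrpl12. Mrpl30 was at 2.70 FPKM in mTBE and 11.4 in control embryos (-1.75). Mrps6 stood at 5.01 FPKM in mTBE and 14.7 in control embryos (-1.39), and Mrpl4 at 7.10 FPKM in mTBE and 19.9 in control embryos (-1.37). All 3 have bacterial counterparts. Mrps6 shares its span with Slc5a3. Mrpl12, the stalk protein that also binds the mitochondrial RNA polymerase in human cells, was at 12.2 FPKM in mTBE and 29.5 in control embryos (-1.21). The other lower members were Mrpl33, Mrpl14, Mrps28, Mrpl43, Mrpl46, Mrpl34, Mrpl52 and Mrpl49, with differences of -1.20 to -1.01. The difference of Mrpl52 rests on 1.01 FPKM in control embryos, just over the filter.

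**Figure D4:**
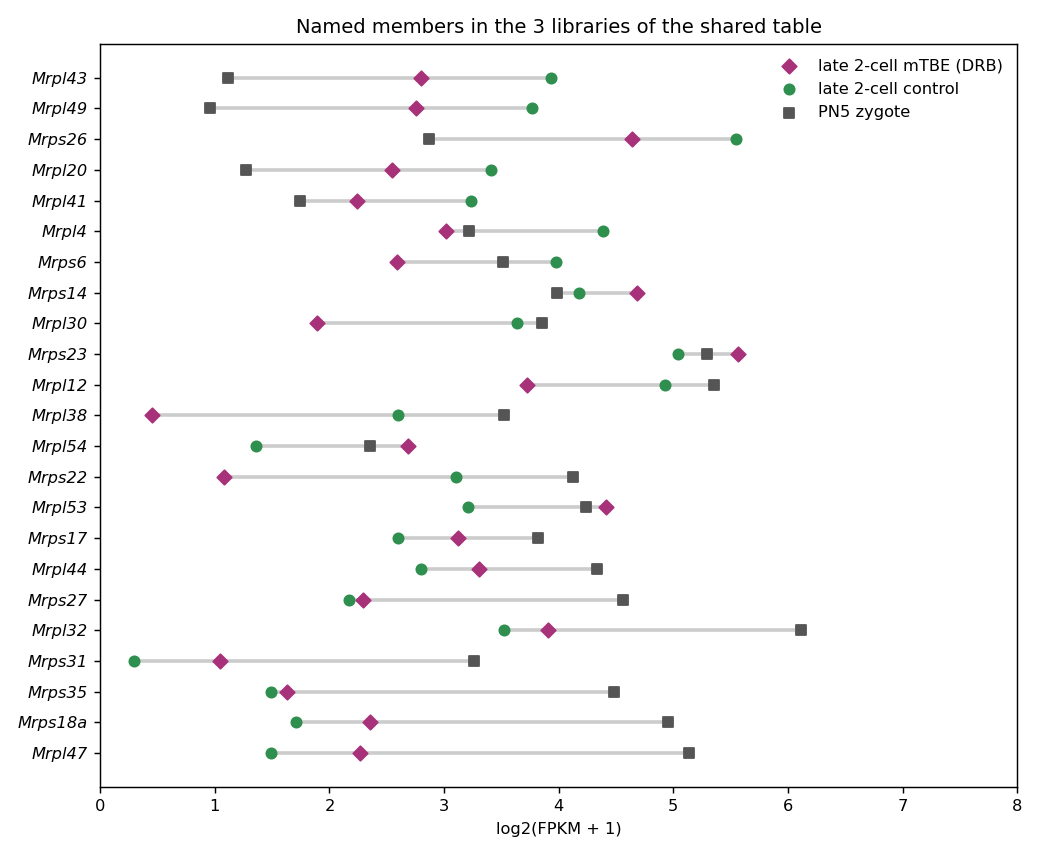
Named members in the libraries of the shared table, log2(FPKM + 1) on the horizontal axis, sorted by control minus PN5; diamonds are late 2-cell mTBE (DRB), circles late 2-cell control and squares PN5 zygotes. From Mrpl43 to Mrpl41 mTBE lies between PN5 and control. In Mrpl38, Mrps22, Mrpl30, Mrps6, Mrpl4 and Mrpl12 mTBE is the lowest, and from Mrps27 to Mrpl47 PN5 stands alone at the high end.

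Increases were few. Mrpl54 was at 5.42 FPKM in mTBE and 1.56 in control embryos (1.32), with 4.12 in PN5. Mrpl53 was at 20.3 FPKM in mTBE and 8.22 in control embryos (1.21), with 17.9 in PN5, and its span overlaps Ccdc142. Both are mitochondria-specific large subunit proteins, and in both the mTBE value was nearer to that of PN5 than the control value was. Among members at 5 FPKM or more in either library, leaving out Mrps34, the next 4 had differences under 1. Mrps17 was at 7.69 FPKM in mTBE and 5.05 in control embryos (0.52), and Mrps23 at 46.3 FPKM in mTBE and 32.0 in control embryos (0.52). Mrpl44 stood at 8.87 FPKM in mTBE and 5.95 in control embryos (0.51), and Mrps14 at 24.6 FPKM in mTBE and 17.1 in control embryos (0.51).

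Mrps12, Mrps30 and Mrpl45, chosen for what is known of their proteins, had differences under the threshold of 1. Mrps12, which helps the small subunit to decode accurately, was at 4.65 FPKM in mTBE and 9.46 in control embryos (-0.89). Mrps30 was at 12.6 FPKM in mTBE and 25.6 in control embryos (-0.96). Mrpl45, which ties the ribosome to the inner membrane, was at 7.76 FPKM in mTBE and 13.3 in control embryos (-0.71). The 3 paralogs of the Mrps18 family differed in course. Mrps18a was at 4.10 FPKM in mTBE and 2.26 in control embryos (0.64), Mrps18b at 3.93 FPKM in mTBE and 4.38 in control embryos (-0.13), and Mrps18c at 10.0 FPKM in mTBE and 6.95 in control embryos (0.47). Against PN5, the control difference was -3.25 for Mrps18a, -1.57 for Mrps18b and -0.85 for Mrps18c, while early 2-cell minus MII was -1.51 for Mrps18a, -1.72 for Mrps18b and -3.45 for Mrps18c. The comparisons with PN5 and with mTBE embryos share the control library, so values of 1 gene in both are not independent.

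All 77 genes were well expressed in both ICM libraries. The median large subunit gene averaged 92.5 ± 1.53 FPKM and the median small subunit gene 82.3 ± 2.48 FPKM (SD, n = 2 libraries each). In both libraries the large subunit median was the higher one. It was 93.6 FPKM for large and 80.6 for small subunit genes in replicate 1. In replicate 2 it was 91.5 FPKM for large and 84.1 for small subunit genes. This difference has no test, and the SD is between library medians, not over genes. Among genes with a bacterial counterpart the small subunit median was higher, at 108.0 and 124.5 FPKM against 101.9 and 115.4 for large. Among mitochondria-specific genes the large subunit median was higher, at 79.5 and 87.2 FPKM against 74.1 and 69.9 for small. The median member lay at percentile 95.8 and 96.0 of all symbols in these libraries, and at percentile 67.8 to 81.7 in the total RNA libraries. For 72 of 77 members both ICM values were above all 5 total RNA values, against 24.7% of 15123 genes at 1 FPKM or more in any library. Stage, RNA selection and table all change together here and cannot be told apart. The ICM libraries held their 7 ICM markers (Nanog, Pou5f1 and others) at 1 FPKM or more, as did both late 2-cell libraries. The sums of these markers were 574 and 449 FPKM in the ICM against 280 to 329 in total RNA. Only Nanog and Tdgf1 stood above every total RNA library in both ICM libraries. Nanog was at 104.5 and 132.8 FPKM in the ICM and at 3.51 or less in total RNA. Tdgf1 was at 106.8 and 61.0 FPKM in the ICM and at 2.35 or less in total RNA. Sox2 was at 5.25 and 2.85 FPKM in the ICM, below its 17.3 in mTBE and 10.1 in control embryos. Sall4 was at 59.3 and 71.4 FPKM in the ICM against 128.8 in MII. Klf2 was at 11.9 and 12.4 FPKM in the ICM against 14.6 in control embryos. Esrrb was at 6.22 and 6.17 FPKM in the ICM against 13.0 in control embryos. Pou5f1 was at 279.9 and 162.8 FPKM in the ICM, on both sides of its 252.4 in early 2-cell embryos. The ICM libraries also held all 7 trophectoderm markers, led by Krt18 and Krt8, with sums of 1803 and 1541 FPKM against 22.2 to 70.6 in total RNA. The part of trophectoderm cells in the ICM values was not tested.

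The most abundant members in the ICM, by mean log2 level, ranged from low to high in total RNA. Mrpl42, a mitochondria-specific protein, averaged 387 ± 11.8 FPKM in the ICM (SD, n = 2) and lay between 0.834 and 7.02 FPKM in total RNA. Mrpl52 averaged 327.9 ± 95.8 FPKM in the ICM and did not pass 7.91 FPKM in total RNA. Mrpl33, whose bacterial counterpart is a small protein near the exit site, averaged 326.8 ± 107.7 FPKM and lay between 1.28 and 14.5 FPKM in total RNA. Mrpl18 averaged 308 ± 19.5 FPKM and Mrps18b 282.7 ± 17.6 FPKM. Mrps18b lay between 3.93 and 30.9 FPKM in total RNA. Only Mrpl18 of these 5 was also among the highest in total RNA. At the low end were Mrps25 at 11.4 ± 0.221 FPKM, Mrpl19 at 17.2 ± 1.59 FPKM and Mrpl1, which forms a mobile stalk at the exit site, at 21.6 ± 0.894 FPKM. Mrps25 overlaps Nr2c2 and Mrpl19 overlaps Gcfc2. The 5 members that did not stand above every total RNA library in both ICM libraries were Mrpl48, Mrpl9, Mrps25, Mrps27 and Mrps36, named because they are exceptions. Mrpl48 was at 31.2 and 37.7 FPKM in the ICM against 110.4 in MII.

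The ICM replicates were close for these genes. The median absolute difference between them was 0.16 over the members and 0.34 over all 9983 genes, and 1 member was at least 2-fold apart, against 5.11% of all genes. That member was Mrpl34, at 95.6 FPKM in replicate 1 and 199.1 in replicate 2 (-1.05). Mrpl23 was next, at 59.4 FPKM in replicate 1 and 33.3 in replicate 2 (0.82). Then came Mrps27, at 31.3 FPKM in replicate 1 and 18.2 in replicate 2 (0.75). The members and all genes differ in level, with 0 members and 3319 genes at a mean of 1 to 5 FPKM. Over 20 to 100 FPKM, 0 of 42 members were 2-fold apart, and 29 genes were lower and 39 higher of 2208. Over 100 FPKM it was 1 of 33 members, and 18 genes lower and 12 higher of 882. The median absolute difference was not taken by level. Of 1972 genes under 0.3 FPKM, 283 lay at 1 ratio within 0.5%, from which replicate 1 was about 2.11 times as deep as replicate 2. The labels do not say that the replicates came from separate embryos, so their spread may be technical.

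**Figure D5:**
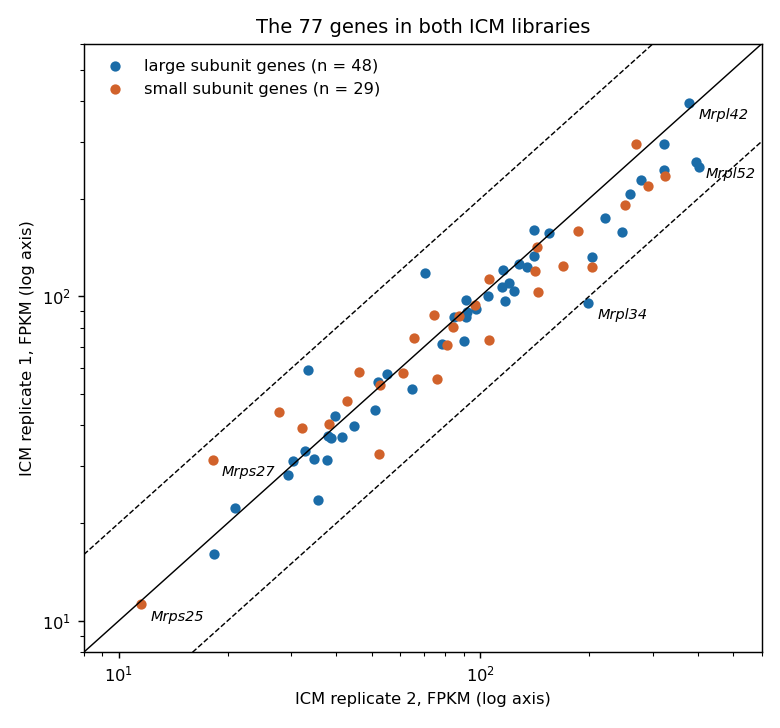
Each of the 77 genes in ICM replicate 1 (vertical axis) against replicate 2 (horizontal axis), in FPKM on log axes; blue points are large subunit genes and orange points small subunit genes. The solid line marks equal values and the dashed lines a 2-fold difference; only Mrpl34 reaches a dashed line, and values run from about 11.2 FPKM for Mrps25 to 403 FPKM for Mrpl33.

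Near-zero values in 1 kind of table set 2 members apart, defined as below 1 FPKM in every library of a kind and at 10 FPKM or more in every library of another. The same held for 1341 of the 24028 symbols. Mrpl23, a protein at the mouth of the exit tunnel, was listed at 0 in PN5, mTBE and control embryos, the whole shared table. It was at 3.79 FPKM in MII, 0.928 in early 2-cell, and 59.4 and 33.3 in the ICM libraries. Mrpl23 has a named pseudogene. Mrps34, a mitochondria-specific small subunit protein, was at 0.214 FPKM in MII, 0.245 in PN5 and 0.190 in early 2-cell embryos. It was at 7.65 in mTBE and 4.13 in control late 2-cell embryos and at 73.6 and 105.9 FPKM in the ICM libraries. For Mrps34 the low values crossed tables, since PN5 shares its table with the late 2-cell libraries. Between the shared table and the single-library tables alone, 0 members and 63 symbols met the definition.

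The same comparisons were made for other genes of mitochondrial translation. In mTBE against control embryos, 9.99% of all genes were lower and 5.57% higher. Of 13 translation factors 1 was lower and 0 higher in mTBE than in control embryos, with a median of -0.19. The elongation factor genes Gfm1, at 11.2 FPKM in mTBE and 15.2 in control embryos, and Gfm2, at 10.6 FPKM in mTBE and 15.3 in control embryos, were within 2-fold. Tsfm, the exchange factor of the elongation factor Tufm, was the lower one, at 4.63 FPKM in mTBE and 11.5 in control embryos (-1.15). Of 20 measured genes of ribosome assembly and rRNA modification 3 were lower and 0 higher, with a median of -0.16. Nsun4, an rRNA methyltransferase, was at 80.2 FPKM in mTBE and 65.4 in control embryos, and Ngrn at 15.1 FPKM in mTBE and 17.2 in control embryos. Ddx28, an RNA helicase, had 11.0 FPKM in mTBE and 10.9 in control embryos. Of 9 genes of mitochondrial transcription and RNA stability 2 were lower, Polrmt and Tefm, and 0 higher. Polrmt, the mitochondrial RNA polymerase, was at 1.19 FPKM in mTBE and 10.2 in control embryos (-2.36); it and Tefm, the elongation factor, were named because they are the 2 counted. The abundant Supv3l1, an RNA helicase, was at 53.2 FPKM in mTBE and 54.6 in control embryos, and Tfb2m, an initiation factor, at 21.2 FPKM in mTBE and 25.4 in control embryos. Lrpprc, which stabilises mitochondrial messengers, had 3.83 FPKM in mTBE and 4.62 in control embryos.

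Mitochondrial ribosomal proteins that carry other names were examined as well. Of 6 measured, 3 were lower and 1 higher in control late 2-cell embryos than in PN5, with a median of -1.38, and early 2-cell embryos had 4 lower than MII, the median being -1.93. Between mTBE and control embryos 1 was lower, Aurkaip1 (-1.51), and 0 higher, against 9.99% lower and 5.57% higher of all genes. Gadd45gip1 was at 10.3 FPKM in mTBE and 10.8 in control embryos, with 72.2 in PN5, 23.6 in early 2-cell and 115.7 in MII. Dap3, a small subunit GTPase, was at 7.66 FPKM in mTBE and 8.40 in control embryos, with 42.8 in PN5, 19.0 in early 2-cell and 38.2 in MII. Ptcd3 was at 13.5 FPKM in mTBE and 15.2 in control embryos, with 22.6 in PN5. Early 2-cell embryos against MII gave 3 lower of 12 translation factors, 6 of 18 assembly genes and 3 of 9 transcription genes, with 0 higher in each list, against 28.8% lower and 4.02% higher of all genes. Control embryos against PN5 gave 2 lower and 2 higher of 13 translation factors, 7 lower and 7 higher of 20 assembly genes, and 2 lower and 1 higher of 9 transcription genes, against 17% lower and 30.5% higher of all genes.

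RefSeq promoter windows of 300 bases were found for 68 of the 77 genes, 74 windows in all. The motifs searched on both strands were CCGGAAG (ETS factors), TGCGCA (a short NRF1 motif), AAGATGGCG (the YY1 motif) and CCAAT (the CCAAT box). The full palindromic NRF1 motif, in which TGCGCA does not occur, was searched as well. Both NRF1 motifs read the same on both strands and can overlap, and no motif contains another. The ETS and NRF1 factors are known regulators of nuclear genes for mitochondria. CCGGAAG was present in 25 of 68 members (36.8%), in 17.9% of genes at 1 FPKM or more in any library and in 9.93% of all genes. TGCGCA was present in 20 members (29.4%), in 14.9% of expressed genes and in 8.79% of all genes. AAGATGGCG was present in 8 members (11.8%), in 3.12% of expressed genes and in 1.64% of all genes. The full NRF1 motif was present in 3 members (4.41%), in 2.15% of expressed genes and in 1.07% of all genes. CCAAT was present in 39.7% of members, in 43.5% of expressed genes and in 41.1% of all genes. GC content was 58.5% at the median window of members, 60% for expressed genes and 52.7% for all genes. Of the 11 members lower in mTBE embryos that had a window, 5 held the ETS motif, 1 the short NRF1 motif and 1 the CCAAT box. None (0) held the YY1 or full NRF1 motif. A match is a description of the sequence and no evidence of binding.

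Many members start close to a neighbour on the opposite strand. A start of another gene lay within 1000 bases in the divergent direction for 26 of 68 members (38.2%) and for 12.3% of all 27025 genes with a window. Among these are Mrpl43 with Twnk, Mrps12 with Sars2, a mitochondrial tRNA synthetase gene, and Mrpl47 with Ndufb5, a respiratory chain gene. In 1 case both genes are members: Mrpl46, of the large subunit, and Mrps11, of the small subunit, start 42 bases apart. The window of Mrps11, which spans both starts, is printed because no other pair of members lies this way. The capitals mark AAGATGGCG on the other strand, beginning 108 bases before the start of Mrps11. This place lies past the start of Mrpl46, in the direction of its transcription. The window of Mrpl46 itself held no match to AAGATGGCG.
Mrps11, chr7:78782881-78783180, plus strand: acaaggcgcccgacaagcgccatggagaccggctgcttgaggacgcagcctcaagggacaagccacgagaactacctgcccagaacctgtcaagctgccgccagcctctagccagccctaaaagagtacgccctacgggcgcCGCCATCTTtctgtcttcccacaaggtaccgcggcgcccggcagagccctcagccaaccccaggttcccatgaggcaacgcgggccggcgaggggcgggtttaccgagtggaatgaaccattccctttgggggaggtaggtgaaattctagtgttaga
Mrpl46 was at 8.26 FPKM in mTBE and 18.5 in control late 2-cell embryos (-1.08), and Mrps11 at 2.87 FPKM in mTBE and 4.70 in control embryos (-0.56). In control embryos against PN5 the differences were 0.69 for Mrpl46 and 0.05 for Mrps11, and in early 2-cell embryos against MII -2.34 for Mrpl46 and -1.19 for Mrps11. Both genes had the same sign in each of these comparisons, with the larger size in Mrpl46, but a shared sign says little about the pair. Of the measured members, 47 of 73 were below 0 in mTBE against control and 74 of 76 in early 2-cell against MII. In control against PN5 the value of Mrps11 was close to 0, and this comparison shares the control library with that of mTBE.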

How the data were processed

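Values are FPKM per gene symbol as the authors deposited them; per the submitters' processing notes, the tools were TopHat2 2.1.1, Cufflinks 2.1.1 and CASAVA 1.8, and the build was mm9, with no role given. Of 116 samples, the 7 RNA libraries were used and 109 were not analysed here. The treated column of the shared table is headed DRB and was taken as the library labelled mTBE. The MII column bears a name that a chromatin sample also bears and was assigned by the sample its table is listed with. No value column lacked a sample (0 columns). Rows with the same symbol were summed, 495 to 497 in each total RNA table, 0 in the ICM table and none among the members. The treatment of multi-mapped reads and of strand is not given in the sources used here.

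Differences were computed with Python 3.11.15, pandas 2.3.3 and NumPy 2.4.6, with a pseudocount of 1 FPKM, a filter of 1 FPKM in at least 1 of the libraries compared and a threshold of 1 on the log2 scale. The calculation was tested on simulated data. The total RNA libraries have no known depth: at most 25 of 645 genes with low values lay at 1 ratio. The precision of these values is therefore unknown. Alternatives were a pseudocount of 0.1, filters of 0 and 5 FPKM, centring on the median log2 ratio (genes from 5 FPKM), rescaling to a sum of 1000000, the highest of repeated rows, leaving out genes set apart or with a named pseudogene, grouping by known structure and leaving out each ICM library. The named genes were the 6 largest decreases and increases of each comparison among members at 5 FPKM or more in a compared library and not set apart, the 5 highest and 3 lowest in total RNA and in the ICM, the 3 farthest apart between ICM libraries, members set apart, the Mrps18 paralogs, Mrpl12, Mrps12, Mrps30, Mrps36 and Mrpl45, and up to 3 genes of each related list. Members, lists and tests were chosen with earlier results of these data known. RefSeq tables of GRCm38 gave promoters, overlaps and pseudogene names, all 77 members being found there.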

Additional observations from a re-analysis of the deposited data

How the results depend on the processing

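No count or median named as a result changed direction. In mTBE against control embryos a pseudocount of 0.1 FPKM gave 22 lower and 4 higher members, against 14 and 2 as reported, while the share of all genes went to 14.1% lower and 10.4% higher, against 9.99% and 5.57% as reported. Rescaling gave 4 higher, and a filter of 5 FPKM moved the medians to -0.71 (large subunit) and -0.23 (small subunit). In control against PN5 the small subunit median was -0.65, both when grouped by known structure and without members that have a named pseudogene. In early 2-cell against MII a pseudocount of 0.1 gave medians of -1.44 (large) and -1.64 (small), centring gave 33 lower and 1 higher with medians of -0.77 and -0.99, and rescaling gave 1 higher with medians of -0.99 and -1.19. The ICM medians, 6.55 and 6.38 on the log2 scale, became 7.66 (large) and 7.49 (small) when rescaled. They lay between 6.53 and 6.56 (large) and between 6.35 and 6.41 (small) with 1 ICM library left out. Rescaling left 0 members at least 2-fold apart between ICM libraries. The other 110 checks stayed within their limits. Of 108 checks on single named genes, run under alternatives chosen after seeing the data, 64 moved by 0.12 or more (the median SD of a member between ICM libraries on the log2 scale). With a pseudocount of 0.1 FPKM the difference became -3.48 for Mrpl38 in mTBE against control (-2.15 as reported) and -4.74 for Mrps31 in control against PN5 (-2.97 as reported). Of the 108 checks, 8 changed sign: Mrpl3, Mrps30, Mrpl24 and Mrpl10 in early 2-cell against MII became 0.52, 0.46, 0.36 and 0.30 with centring and 0.41, 0.35, 0.24 and 0.18 with rescaling. No paired analysis was possible because each total RNA group holds 1 library and the groups share only the number 1. With single libraries, unknown depth and tables normalized separately, the differences describe these libraries and not the spread within a condition.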
